A study of Mus musculus with 31 samples.

Results

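Pparg, Cidea, Cidec, Plin4, Cd36, Fabp4, Mogat1, Cfd and Retn are 9 genes linked to the nuclear receptor PPARγ and to fat storage in liver, and their signals were read on whole-liver arrays of 31 male C57BL6/J mice. The genes were taken by symbol and chosen by their log2 signals, with earlier results of these data known, because several of them varied widely between mice of the same group. The array carried 15 probes with these symbols, and 12 of them passed the authors' filter on dim spots, so that every gene kept at least 1 probe. These were 9 of 23968 gene names and 12 of 36059 probes tested. The samples came from ChREBPβ-deficient mice (8 mice), in which CRISPR/Cas9 removed the exon of Mlxipl that is particular to the ChREBPβ isoform, from their WT littermates (8 mice), from total ChREBP-KO mice (7 mice), which lack both isoforms and belong to a separately made Mlxipl-null line, and from the WT littermates of that line (8 mice). The deletions were carried in the germ line and so in every tissue. All mice, WT included, were fasted for 24 hours and then refed for 18 hours with their earlier diet and with drinking water that held 20% glucose. Age and founder line of the single mice are not given in the sources used here, and each array was taken as 1 mouse. Replicate 3 of the total ChREBP-KO group was not analysed here.

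PPARγ is a ligand-activated transcription factor that binds DNA as a dimer with RXR and drives the gene program of fat cells. Hepatocytes normally hold little of it, and its program, including coats of lipid droplets, fatty acid carriers and proteins known from adipocytes, is known to appear in fatty liver. ChREBP, the product of Mlxipl, is the glucose-sensing factor that turns on glycolysis and lipogenesis in the refed liver.

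The sequences below show the DNA just before the start of 3 of the genes. Cd36 and Mogat1 are shown because they were called higher in total ChREBP-KO liver and because each held a near match to the element that PPARγ and RXR bind, and Cfd because it varied most between mice. Each is the 250 bases before the annotated start, read 5′ to 3′, from RefSeq (build GRCm38.p6). Cd36 lies at chr5:17835897-17836146, minus strand, Mogat1 at chr1:78510810-78511059, plus strand and Cfd at chr10:79890603-79890852, plus strand. Capitals mark a match to the direct repeat AGGTCANAGGTCA on either strand with at most 2 mismatches.
Cd36: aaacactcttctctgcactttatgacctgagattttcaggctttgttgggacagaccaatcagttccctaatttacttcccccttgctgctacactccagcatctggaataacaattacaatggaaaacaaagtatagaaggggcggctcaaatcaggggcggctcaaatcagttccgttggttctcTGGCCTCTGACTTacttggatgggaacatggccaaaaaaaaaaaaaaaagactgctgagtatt
Mogat1: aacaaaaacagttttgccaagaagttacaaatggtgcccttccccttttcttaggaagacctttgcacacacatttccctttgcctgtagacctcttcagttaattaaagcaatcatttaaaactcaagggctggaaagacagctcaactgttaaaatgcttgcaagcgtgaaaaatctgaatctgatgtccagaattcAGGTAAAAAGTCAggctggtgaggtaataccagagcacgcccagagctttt
Cfd: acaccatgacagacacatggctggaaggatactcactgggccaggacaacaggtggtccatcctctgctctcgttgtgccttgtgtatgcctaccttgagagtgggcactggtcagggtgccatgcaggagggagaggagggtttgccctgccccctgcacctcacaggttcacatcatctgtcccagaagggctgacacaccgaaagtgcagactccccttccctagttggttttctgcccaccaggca
The match began 51 bases and ended 39 bases before the start in Mogat1, on the strand of the gene. In Cd36 it spanned 63 to 51 bases before the start, on the opposite strand. RefSeq windows were at hand for 7 of the 9 genes, 10 windows in all, and these 2 were the only windows with such a match. Of all 32851 windows, 3.24% held one. The single site AGGTCA, on either strand, was in 3 of the 10 windows, 2 of Pparg and 1 of Cd36, and in 14% of all windows. The E-box CACGTG was in 0 of the 10 windows and in 6.02% of all. A match of letters is a description and does not show that a factor binds there. Fabp4 and Cidea are named only.

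The livers read as liver. All 8 hepatocyte markers (Alb, Apoa1, Ttr, Cps1, Tat, Hnf4a, Serpina1c, Apob) were well above background on all 31 arrays, and their mean log2 signal lay between 16.20 and 16.80 in every mouse. Of 3 Mlxipl probes, the one with the highest signal was lower in ChREBPβ-deficient than in WT liver by a log2 difference of -0.45 and in total ChREBP-KO than in WT liver by -1.16, without overlap in either line (limma, adjusted p = 0.0152 and 8.05e-13). Another gave -0.46 and -0.59 with overlapping groups and was called in the total line alone (adjusted p = 0.909 and 0.00313), and the last gave -0.06 and -0.05 and was called in neither line (adjusted p = 0.9998 and 0.603). In this whole-tissue RNA, fewer cells of a type and less RNA per cell cannot be told apart. Total-line WT mice 2 and 5 and total ChREBP-KO mouse 6 stood apart from the others. Adig, an adipocyte gene, read 6.83, 7.40 and 7.66 in these 3 mice and 5.33 to 5.79 in the other 28. Adipoq, the adipocyte hormone adiponectin, did not pass the filter and read 7.19, 7.82 and 8.87 in the 3 mice against 4.21 to 5.499 in the others. Of the other white adipocyte markers, Plin1, Lipe and Aqp7 in the 3 mice lay within the range of the other 28, Lep read 8.517 at most against 8.505, Sncg 6.36 at most against 6.35, and Adrb3 read 10.58 in total ChREBP-KO mouse 6 against 10.18 at most in the other 28. Adrb3 was also called higher in total ChREBP-KO than in WT liver as a group, by 1.52 (adjusted p = 5.30e-08). The mean over the 7 listed markers that passed the filter ranged from 6.82 to 6.96 in beta-line WT, 6.69 to 7.01 in ChREBPβ-deficient, 6.62 to 7.11 in total-line WT and 6.93 to 7.38 in total ChREBP-KO mice. Total ChREBP-KO mouse 6 also read 12.76 for the skeletal muscle gene Tnnc2 (at most 5.71 elsewhere). Of the other listed muscle genes it read 11.36 for Acta1, 10.03 for Mylpf and 7.43 for Ckm, against at most 6.03, 6.65 and 4.64 in the 28 mice. Myh4, at 5.93, lay within their range of 5.59 to 6.16. Total-line WT mice 2, 7 and 8 read 10.41, 8.49 and 8.81 for the pancreatic gene Cela3b (at most 5.58 elsewhere). Between total ChREBP-KO and WT liver, the markers called were Ttr and Cps1 (higher) of 8 hepatocyte genes, Adrb3 (higher) of 7 tested for white adipocytes, Elovl3 (lower) and Cox7a1 (higher) of 3 for brown adipocytes, Cela3b, Ctrb1, Ctrl and Cel (lower) of 7 for pancreas and Reln (higher, 0.80) of 6 for stellate cells, and none of 8 each for macrophages and endothelium or 4 for skeletal muscle. What these markers contributed to the Pparg, Cd36, Mogat1 and other results was not tested.

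**Figure D1:**
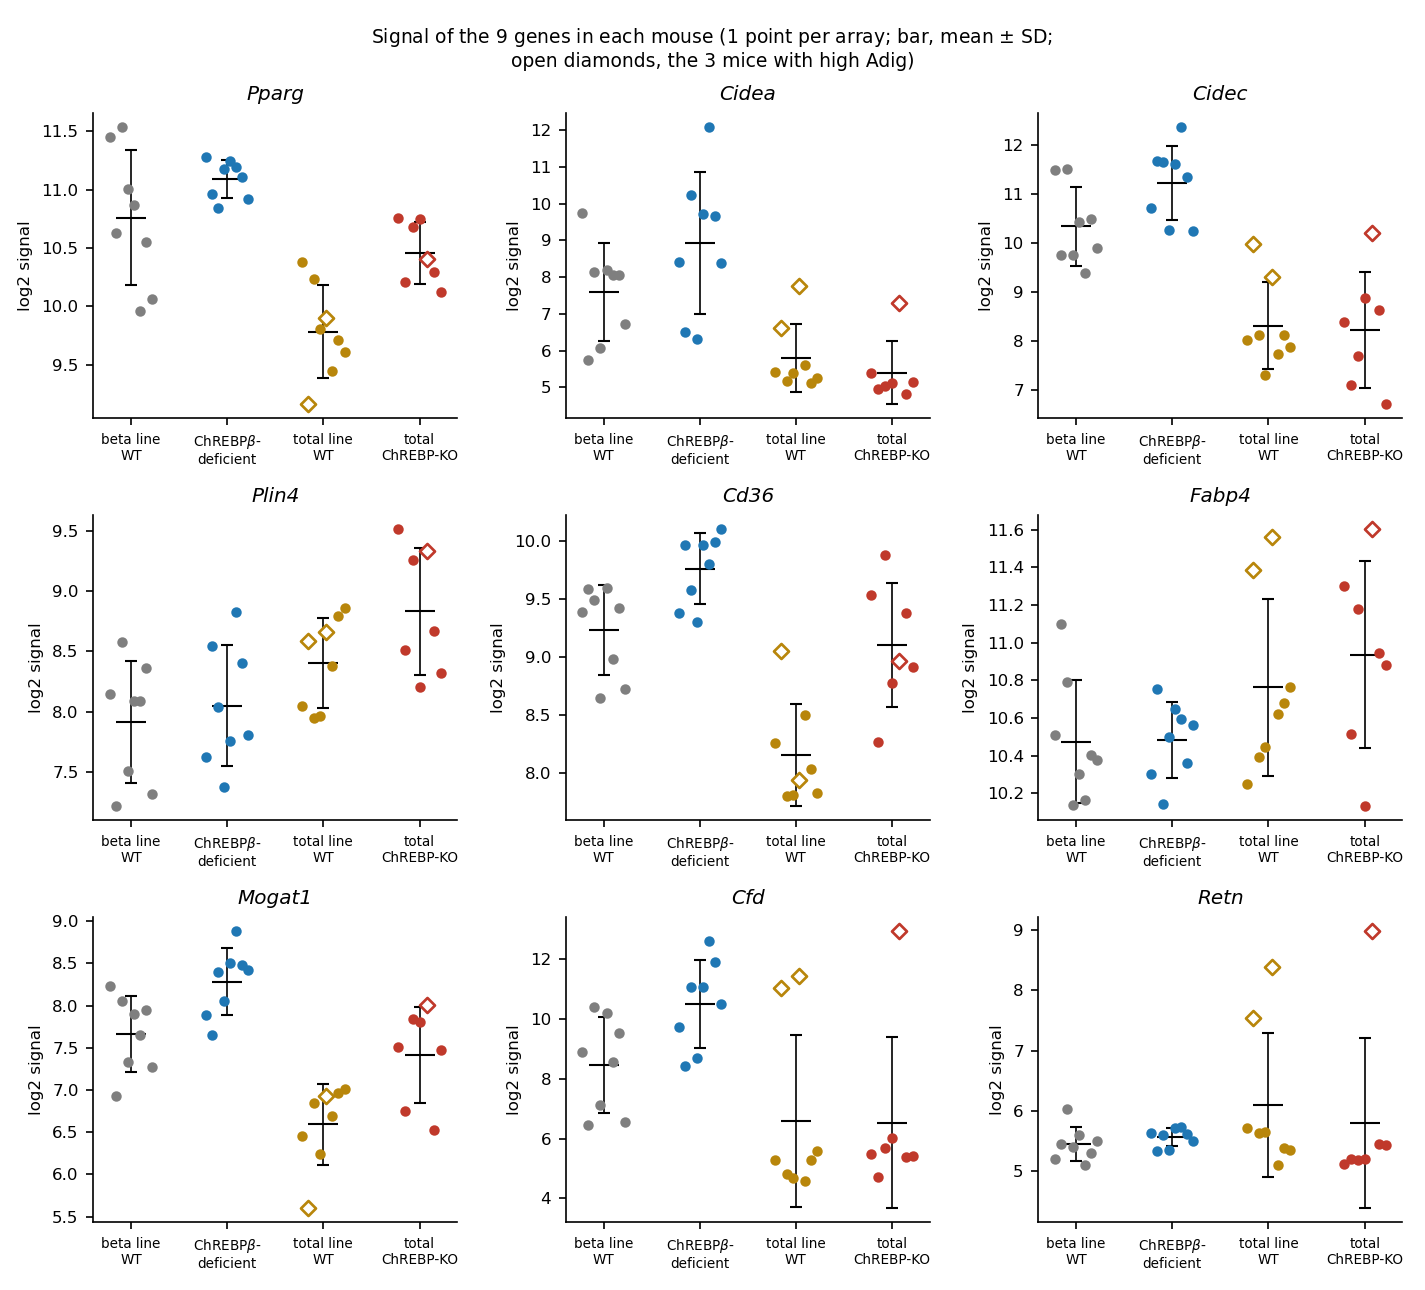
Log2 signal (vertical axes) of each gene's brightest probe in every mouse, by group (horizontal axes). Points are mice, bars are the mean ± SD, and open diamonds are total-line WT mice 2 and 5 and total ChREBP-KO mouse 6, in which Cfd read 11.03, 11.44 and 12.94 and Retn 7.55, 8.40 and 8.99.

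Lack of ChREBPβ moved none of the 9 genes past the threshold, whereas Pparg, Cd36 and Mogat1 were higher in total ChREBP-KO liver. Between ChREBPβ-deficient and WT liver, 0 of 12 probes passed an adjusted p of 0.05 in the limma fit, against 0.00277% of all probes. All 12 differences were nevertheless above 0, as were 49.6% over all probes, with a median of 0.43 on the log2 scale and 5 probes had an unadjusted p under 0.05 (4.98% of all probes). Between total ChREBP-KO and WT liver, 3 of 12 probes (3 of 9 genes) were called higher and 0 lower. The background was 14.5% of probes (17.3% of genes) called higher and 14.6% of probes called lower, and the median of the 12 differences was 0.12. The difference between both effects was called for 0 of 12 probes, against 15.1% of all probes, and 0 of 12 had an unadjusted p under 0.05, against 27.8% of all probes. The WT littermates of the lines differed more: 6 of 12 probes, from 5 of the 9 genes, were lower in total-line WT than in beta-line WT liver and 0 were higher, where 8.92% of all probes and 11.4% of all genes were called lower and 8.12% of probes higher. On the arrays of scan day 1 alone, with fewer mice, 1 probe (Mogat1) was called higher in total ChREBP-KO liver, and on those of scan day 2 alone 1 probe (Cd36). As the genes were chosen with results known, these p-values describe the data, and in the comparison of WT littermates line and colony cannot be told apart.

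**Figure D2:**
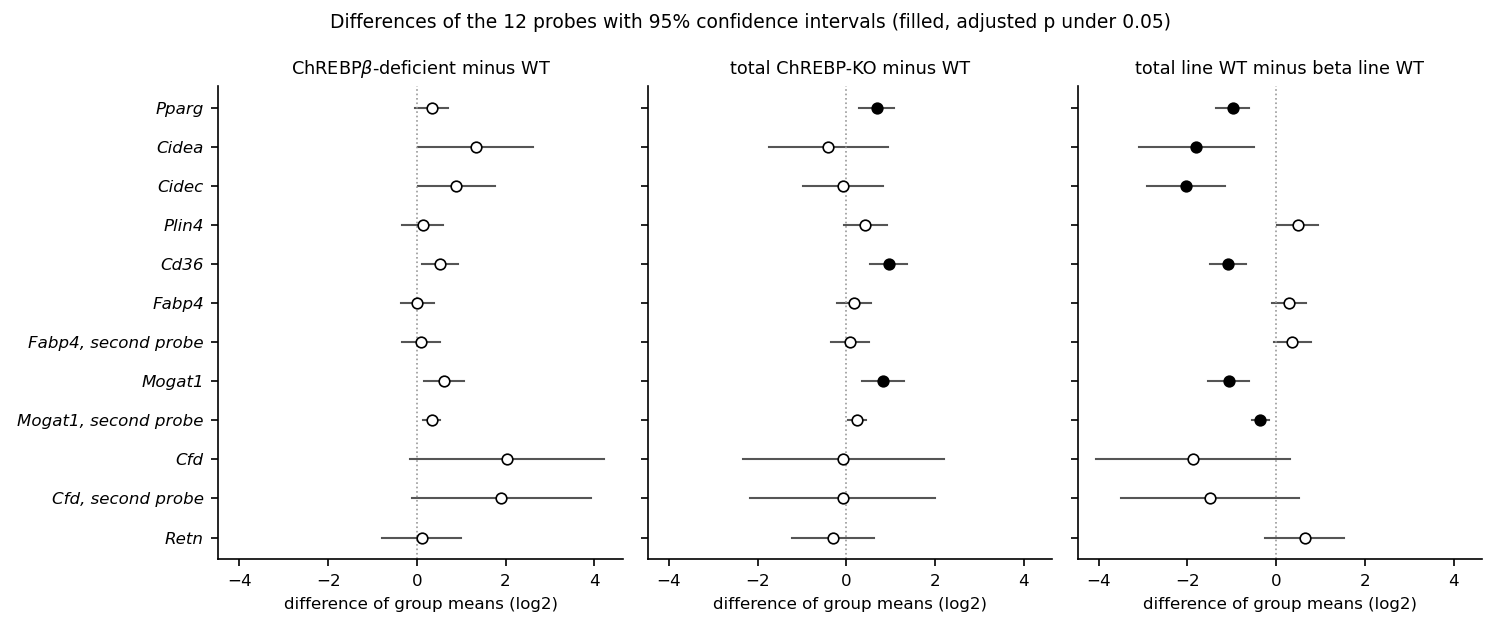
Difference of group means (log2, horizontal axes) for the 12 probes with 95% confidence intervals, for ChREBPβ-deficient minus WT, total ChREBP-KO minus WT, and total-line WT minus beta-line WT liver. Filled points passed an adjusted p of 0.05: 0, 3 and 6 of the 12 probes.

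Pparg encodes PPARγ itself, and its tested probe lies at chr6:115440213-115440272 (mm9, plus strand). In beta-line WT mice it read 9.96 to 11.54 (median 10.75) and in ChREBPβ-deficient mice 10.84 to 11.28 (median 11.14). In total-line WT mice it read 9.16 to 10.38 (median 9.76) and in total ChREBP-KO mice 10.12 to 10.75 (median 10.40). The ChREBPβ-deficient mice lay close together, inside the wider range of their WT littermates, whereas 4 of 7 total ChREBP-KO mice lay above every WT littermate. The log2 difference was 0.33 ± 0.18 (SE) in the beta line (adjusted p = 0.998) and 0.68 ± 0.19 in the total line (1.60-fold, adjusted p = 0.00724). Total-line WT was lower than beta-line WT liver by a log2 difference of -0.98 ± 0.18 (adjusted p = 4.10e-04), and 6 of 8 of the former lay below all of the latter. Without the 3 WT mice with pancreatic RNA the total ChREBP-KO difference was 0.51 and was no longer called (adjusted p = 0.0793), with fewer mice in the fit, and without the 3 mice with high Adig it was 0.60 (adjusted p = 0.0335). The other Pparg probe on the array was well above background on 0 of 31 arrays.

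Among lipid droplet proteins, Cidea and Cidec, which promote the fusion and growth of droplets, were lower in total-line WT than in beta-line WT liver, and neither was called in either comparison of mutant with WT mice. Cidea read 5.74 to 9.76 (median 8.06) in beta-line WT and 6.32 to 12.09 (median 9.04) in ChREBPβ-deficient mice. It read 5.12 to 7.77 (median 5.41) in total-line WT and 4.82 to 7.30 (median 5.12) in total ChREBP-KO mice, in which it was well above background in 6 of 7. All total ChREBP-KO mice but mouse 6 lay below all the beta-line mice, and the ranges within the beta line spanned 16.2-fold in WT and 54.4-fold in ChREBPβ-deficient mice. The difference was 1.33 ± 0.63 in the beta line (adjusted p = 0.989) and -0.40 ± 0.65 in the total line (adjusted p = 0.695). Total-line WT was lower than beta-line WT by -1.80 ± 0.63 (adjusted p = 0.0480), close to the threshold. The call was lost in 21 of the 31 fits that left out 1 array, with adjusted p up to 0.106 without beta-line WT mouse 1. Without the 3 mice with high Adig the difference was -2.26 (adjusted p = 0.0160). Of these, WT mice 2 and 5 held the highest Cidea of their group (6.62 and 7.77), so leaving them out could only widen the difference. With slides as fixed blocks it was -1.10 (adjusted p = 0.399). Cidea is also known from brown fat. Of 5 brown adipocyte markers, Ucp1 was well above background on 1 of 31 arrays and Dio2 on 2, while Elovl3 and Cox7a1 were so on all 31 and read 13.25 to 15.24 and 9.41 to 10.43 in the beta line. Cox8b read 4.77 to 5.97 in the beta line, 6.39 in total-line WT mouse 5 and 9.14 in total ChREBP-KO mouse 6, the mice with the highest Cidea of their groups.

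Cidec read 9.39 to 11.52 (median 10.16) in beta-line WT and 10.25 to 12.37 (median 11.48) in ChREBPβ-deficient mice. In the total line it read 7.31 to 9.99 (median 8.07) in WT and 6.71 to 10.21 (median 8.40) in KO mice. The highest values of the total line came from WT mice 2 and 5 and KO mouse 6, and every other total-line mouse lay below all mice of the beta line. The difference was 0.89 ± 0.43 in the beta line (adjusted p = 0.989), with 4 of 8 ChREBPβ-deficient mice above all WT littermates, and -0.08 ± 0.44 in the total line (adjusted p = 0.923). Total-line WT was lower than beta-line WT by -2.03 ± 0.43 (4.09-fold, adjusted p = 0.00139), and by -2.48 ± 0.37 without the 3 mice with high Adig (adjusted p = 4.13e-05). As WT mice 2 and 5 had the highest Cidec of their group, leaving them out could only widen the difference. With slides as fixed blocks it was -1.71 and not called (adjusted p = 0.0842), nor was it on scan day 1 or 2 alone (-2.002 and -2.06, adjusted p = 0.0504 and 0.0838).

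Plin4, a perilipin that coats droplets, was called in none of the comparisons. It read 7.21 to 8.58 (median 8.09) in beta-line WT, 7.37 to 8.83 (median 7.92) in ChREBPβ-deficient, 7.95 to 8.86 (median 8.48) in total-line WT and 8.20 to 9.52 (median 8.67) in total ChREBP-KO mice. Neighbouring groups overlapped, and the highest value belonged to total ChREBP-KO mouse 1. The differences were 0.13 ± 0.23 in the beta line, 0.43 ± 0.23 in the total line (95% interval -0.05 to 0.91) and 0.49 ± 0.23 between the WT littermates (adjusted p = 0.184 in the total line and 0.136 between WT littermates).

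Among genes of fatty acid handling, Cd36, the fatty acid transporter of the cell surface, had the smallest adjusted p of the 12 probes in total ChREBP-KO liver. It read 7.80 to 9.05 (median 7.99) in total-line WT and 8.27 to 9.89 (median 8.97) in total ChREBP-KO mice. In the beta line it read 8.65 to 9.59 (median 9.41) in WT and 9.30 to 10.11 (median 9.89) in ChREBPβ-deficient mice. In the total line 3 of 7 KO mice lay above every WT littermate. Apart from WT mouse 2 and KO mouse 2, the WT mice read at most 8.499 and the KO mice at least 8.78. The total-line difference was 0.95 ± 0.21 (1.94-fold, adjusted p = 6.87e-04) and 1.09 ± 0.22 without the 3 mice with high Adig. The beta-line difference was 0.53 ± 0.20 (1.44-fold, adjusted p = 0.989), with 5 of 8 ChREBPβ-deficient mice above all WT littermates. The difference of the effects was 0.42 ± 0.29 (adjusted p = 0.365, 95% interval -0.16 to 1.01). Total-line WT was lower than beta-line WT by -1.08 ± 0.20 (2.11-fold, adjusted p = 3.34e-04), with 7 of 8 mice below all of the other group.

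Mogat1 encodes a monoacylglycerol acyltransferase of triglyceride synthesis. Its brighter probe read 6.93 to 8.23 (median 7.77) in beta-line WT, 7.65 to 8.89 (median 8.41) in ChREBPβ-deficient, 5.60 to 7.01 (median 6.77) in total-line WT and 6.52 to 8.005 (median 7.51) in total ChREBP-KO mice. In both lines 5 mutant mice lay above all WT littermates. The difference was 0.82 ± 0.23 in the total line (1.77-fold, adjusted p = 0.00744) and 0.62 ± 0.22 in the beta line (1.53-fold, adjusted p = 0.972). Without the 3 mice with high Adig, the total-line difference was 0.61 ± 0.23 and just missed the threshold (adjusted p = 0.0517). A second, dimmer probe gave 0.24 ± 0.10 in the total line (adjusted p = 0.0579) and 0.34 ± 0.09 in the beta line, where its unadjusted p of 0.00113 was the smallest of the 12 (adjusted p = 0.800). Both probes were called lower in total-line WT than in beta-line WT liver, by -1.07 ± 0.22 and -0.35 ± 0.09 (adjusted p = 0.00125 and 0.00854). The call of the second probe was lost with slides as fixed blocks (adjusted p = 0.116) and with scaling to the 75th percentile (0.0777), and its total ChREBP-KO difference was called with slides as random or fixed blocks (adjusted p = 0.0385 and 0.0186). The remaining Mogat1 probe was well above background on 0 of 31 arrays.

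Fabp4, the fatty acid-binding protein of adipocytes, macrophages and capillary endothelium, was called in none of the comparisons by either probe. The brighter probe read 10.14 to 11.10 (median 10.39) in beta-line WT, 10.15 to 10.75 (median 10.53) in ChREBPβ-deficient, 10.25 to 11.56 (median 10.65) in total-line WT and 10.13 to 11.60 (median 10.94) in total ChREBP-KO mice. Its highest values were again those of total-line WT mice 2 and 5 and KO mouse 6 (11.39, 11.56 and 11.60). The differences were 0.01 ± 0.18 in the beta line and 0.17 ± 0.19 in the total line, with 95% intervals of -0.36 to 0.39 and -0.22 to 0.56, and without those 3 mice the total-line difference was 0.30 ± 0.16 (adjusted p = 0.190).

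Of the secreted proteins, Cfd, the complement protease adipsin, had by far the widest range. It read 6.44 to 10.42 (median 8.72) in beta-line WT and 8.42 to 12.60 (median 10.78) in ChREBPβ-deficient mice, and it was well above background in all 16. In the total line it read 4.59 to 11.44 (median 5.29) in WT and 4.71 to 12.94 (median 5.496) in KO mice, and it was well above background in 6 of 8 and 6 of 7. The total line split into 12 mice between 4.59 and 6.01 and the 3 mice with high Adig at 11.03, 11.44 and 12.94, whereas the 16 beta-line mice ran from 6.44 to 12.60 without so wide a gap. In the beta line 5 of 8 ChREBPβ-deficient mice lay above every WT littermate, and the difference was 2.04 ± 1.07 (4.11-fold, adjusted p = 0.992, 95% interval -0.15 to 4.23). In the total line it was -0.07 ± 1.11 (adjusted p = 0.974). Since the spread is shared over groups, the 3 mice also enter the error of the beta-line value. Without them the same difference of 2.04 had an SE of 0.56 and still was not called (adjusted p = 0.756). That SE draws in turn on the 12 total-line mice between 4.59 and 6.01, and is small for the beta line. The pooled SD was then 1.20, below the SDs of 1.59 in beta-line WT and 1.47 in ChREBPβ-deficient mice. Total-line WT read lower than beta-line WT by -1.87 ± 1.07 (adjusted p = 0.242) and, without the 3 mice, by -3.42 ± 0.61 (adjusted p = 3.04e-04). WT mice 2 and 5 held the highest Cfd of their group, so leaving them out could only widen this difference. The SE of 0.61 comes from the same pooled SD of 1.20, and nothing is read from the gained call. The second Cfd probe gave 1.91 ± 0.99, -0.09 ± 1.02 and -1.49 ± 0.99 in the same comparisons.

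Retn, the hormone resistin of mouse adipocytes, was low in all beta-line mice. It read 5.11 to 6.04 (median 5.43) in beta-line WT and 5.33 to 5.73 (median 5.61) in ChREBPβ-deficient mice, and 5.09 to 5.71 or 5.12 to 5.45 in total-line WT or KO mice outside the 3 with high Adig. Those 3 read 7.55, 8.40 and 8.99 and stood clear of all others. No comparison was called, with differences of 0.11 ± 0.43 in the beta line and -0.30 ± 0.45 in the total line, and 0.11 ± 0.10 and -0.21 ± 0.12 without those 3 mice. A second Retn probe that did not pass the filter was well above background on 12 arrays and read 5.33 at most in the beta line, but up to 8.46 in total-line WT mouse 5 and 9.02 in total ChREBP-KO mouse 6.

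The spread between mice was a reason for choosing these genes and is given as a description. The pooled within-group SD of the Cfd probes, 2.28 and 2.10, ranked 3 and 4 among 36059 probes, that of Cidea (1.34) ranked 40, and those of Retn (0.92) and Cidec (0.91) ranked 140 and 147. The median over the 12 probes was 0.476, against 0.159 over all probes. The second Mogat1 probe (0.19) was the only one below the 95th percentile of all probes (0.381). Without the 3 mice with high Adig, the SD of Retn fell from 0.92 to 0.22 and that of Cfd from 2.28 to 1.20, that of Cidec from 0.91 to 0.73 and that of Cidea from 1.34 to 1.27. High and low values gathered in part in the same mice. ChREBPβ-deficient mouse 6 was the highest of its group for 6 of 9 genes (Cidea, Cidec, Plin4, Mogat1, Cfd, Retn), beta-line WT mouse 3 for 5 and total ChREBP-KO mouse 6 for 6. Beta-line WT mouse 2 was the lowest of its group for 4 genes (Cidea, Plin4, Mogat1, Cfd) but the highest for Fabp4. Total-line WT mouse 2 was the highest of its group for Cidec and Cd36 but the lowest for Pparg and Mogat1.

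**Figure D3:**
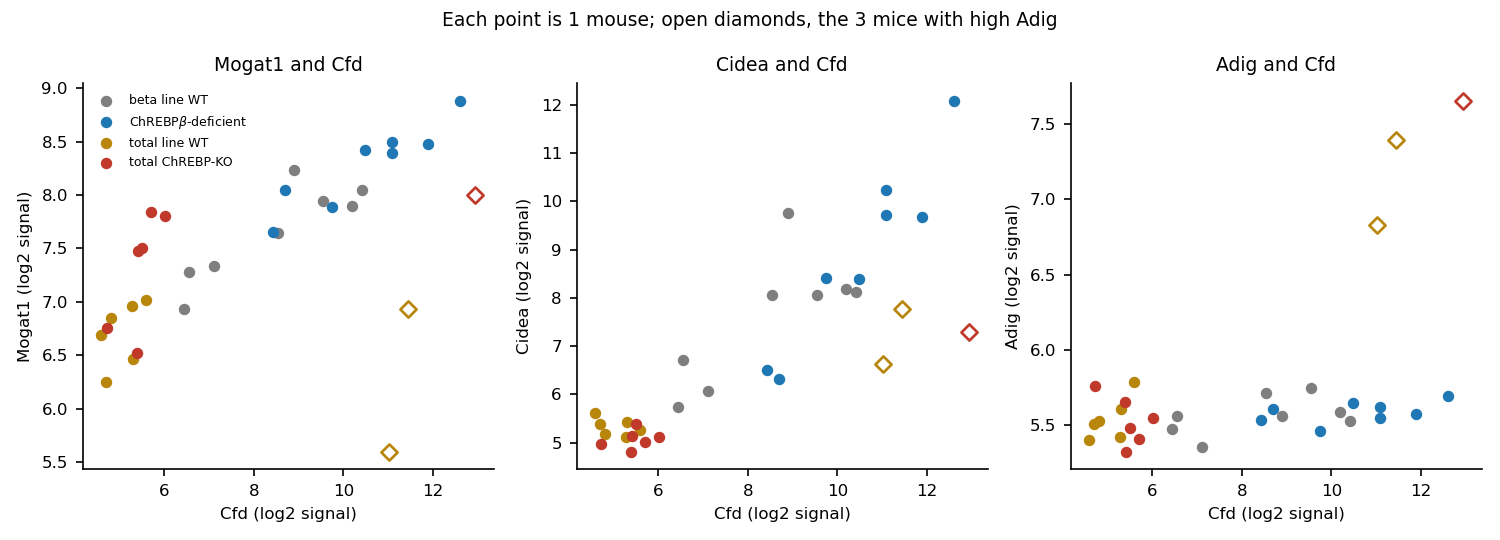
Log2 signal of Mogat1, Cidea and Adig (vertical axes) against Cfd (horizontal axes), 1 point per mouse; open diamonds are the 3 mice with high Adig. Across the 16 beta-line mice Mogat1 and Cidea climbed with Cfd while Adig stayed between 5.35 and 5.74, whereas in the total line high Cfd and high Adig occurred in the same 3 mice.

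In the beta line, Cfd, Cidea and Mogat1 varied together between mice. Over its 16 mice, taken as deviations from the group means, Pearson r was 0.90 between Mogat1 and Cfd (Spearman rho 0.89), 0.87 between Cidea and Mogat1 (rho 0.80) and 0.85 between Cidea and Cfd (rho 0.83). These values were 0.86, 0.90 and 0.80 without the 2 mice farthest from their group mean in 1 gene of the pair. That gene was Mogat1 for Mogat1 with Cfd, and Cidea for the other pairs. Cidec went with Plin4 (r = 0.73, rho 0.71). Cidec and Plin4 also went with Cidea (r = 0.66 and 0.61), Mogat1 (0.62 and 0.64) and Cfd (0.60 and 0.72). Fabp4 showed r of -0.17 with Mogat1 and -0.15 with Cfd, and its highest r was 0.59 with Cd36. Pparg showed r of 0.22 with Cidea and 0.34 with Cfd. Its highest r was 0.58 with Cidec (rho 0.38), and this was 0.36 without the 2 mice farthest in Pparg. Adig and Adipoq read 5.35 to 5.74 and 4.32 to 5.499 in these mice. In beta-line WT, Adipoq was well above background in mice 1, 3, 5, 6 and 7 (Cfd 8.55 to 10.42). It was not in mice 2, 4 and 8 (Cfd 6.44 to 7.12). Among ChREBPβ-deficient mice it was well above in mice 5 and 6 alone (Cfd 11.08 and 12.60), and mouse 7 without it had Cfd 11.90. Retn read 5.11 to 6.04, highest in WT mouse 3, which also had the highest Cfd and Adipoq of its group. The part of adipocyte RNA in these values was not tested. In the total line the 3 mice formed a cluster of their own, so r was taken over the other 12, where it was 0.63 between Mogat1 and Cfd, -0.08 between Cidea and Cfd and 0.01 between Cfd and Retn. The closest pair in these 12 mice was Plin4 and Fabp4 (r = 0.83). Cfd read only 4.59 to 6.01 in them and Cidea 4.82 to 5.62. The Pparg probe that was never well above background read up to 4.53. With Cfd and Cidea this dim, their r in these mice cannot be compared with those of the beta line. The 36 pairs in each line share arrays and depth of labelling, and no p is given for them.

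**Figure D4:**
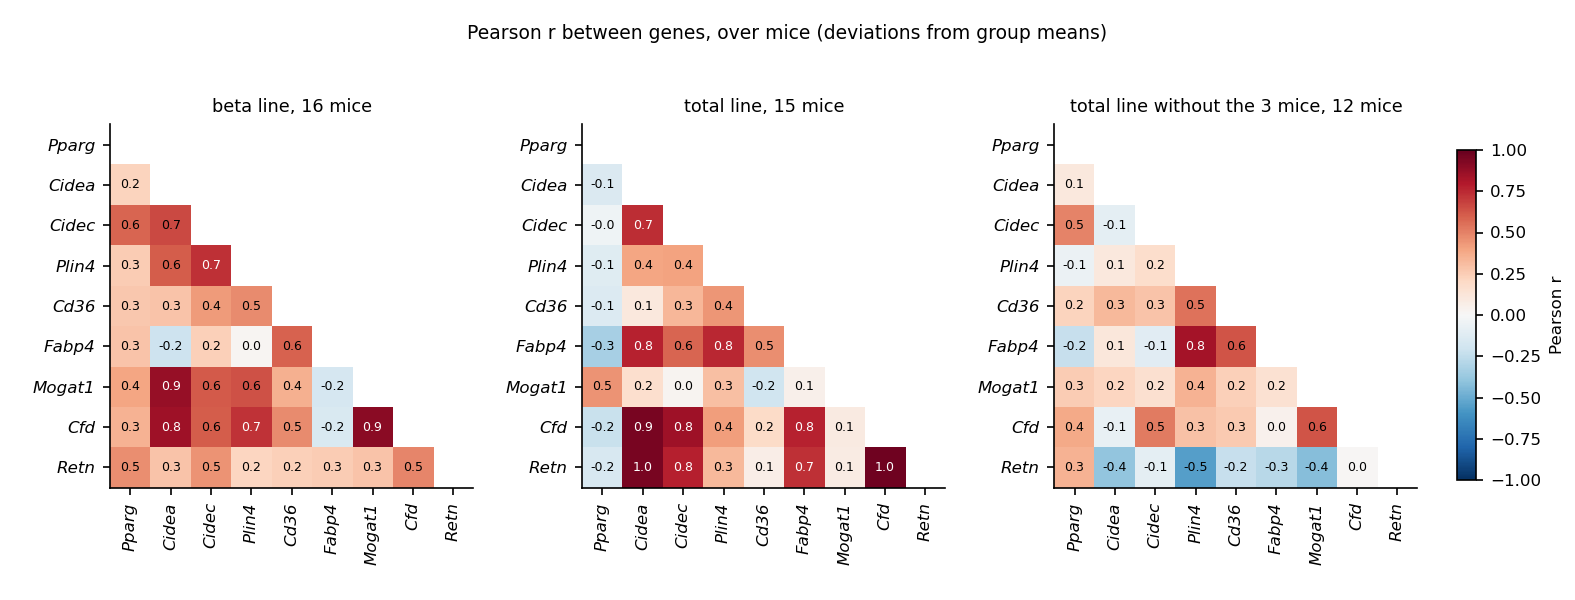
Pearson r between each pair of the 9 genes over mice, as deviations from the group means, for the beta line (16 mice), the total line (15 mice) and the total line without the 3 mice with high Adig (12 mice). Red is positive and blue negative; the 3 pairs among Cidea, Mogat1 and Cfd have the highest r of the beta line, and the r of 0.97 between Cfd and Retn in the total line falls to 0.01 without the 3 mice.

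Over all 31 arrays, the genes whose deviations from the group means were most like each of the 9, among 19620 probes measured on every array, differed from gene to gene. Pparg was most like Fgfrl1, Zfp503 and Nr3c2 (r = 0.81, 0.78 and 0.77). Mogat1 was most like Fitm1, Rgn and Lect2 (r = 0.83, 0.82 and 0.82), of which Fitm1 encodes a lipid droplet protein. Gas5 and Fbln1 were among the genes most like Cidec (r = 0.72 and 0.71), and Cidea was most like Gtf2h5, Lgr5 and Aatk (r = 0.69, 0.69 and 0.68). The r of Cidec with Fbln1 was 0.37 within the beta line, and that of Cidea with Aatk was 0.19 within the total line. Fabp4 was most like Ly6c1, Cd34 and Myo1g (r = 0.76 each), the first 2 of which are known from endothelial and blood cells, and none of the 8 endothelial markers was called between mutant and WT mice of either line. Plin4 was most like Bex4, Unc119 and Celf2 (r = 0.75, 0.74 and 0.69). Cd36 was most like Cpxm1 (r = 0.74), a transcript with no symbol (0.73) and Ddx26b (0.72). For Cfd and Retn the closest gene was Adig (r = 0.87 and 0.95), but within the beta line these values were 0.47 and -0.24. Next came Flnc and Chst1 for Cfd (r = 0.75 and 0.72) and Chst1 and Tppp3 for Retn (r = 0.85 and 0.76). Within the beta line these were 0.31 and 0.09 for Cfd and 0.52 and -0.20 for Retn.

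The other genes of the PPARγ pathway moved in both directions in total ChREBP-KO liver. Of 63 listed genes, 60 were tested. None of the 60 was called in ChREBPβ-deficient liver (0.00417% of all genes). In total ChREBP-KO liver 16 were called higher and 14 lower, against 17.3% and 17.1% of all genes, and the medians of the differences of brightest probes, 0.06 and 0.02 in the respective lines, stood beside -0.0035 and 0.0078 over all genes. The effects of both deletions differed for 16 of the 60, 7 upward and 9 downward in the total line relative to the beta line (8.82% and 9.6% of all genes).

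In triglyceride synthesis, Lpin1, which makes diacylglycerol, differed by -3.25 ± 0.20 (8.87 ± 0.53, SD, n = 7, in KO against 12.12 ± 0.39, n = 8, in WT), Gpam by -1.55 ± 0.18 and Agpat2 by -0.98 ± 0.09, and Lpin2 rose by 0.75 ± 0.13. The other 3 of 7 genes were not called, and Mogat1 is not counted here. Of 16 lipid droplet genes 6 were lower and 1 higher. Pnpla3 fell by 3.90 ± 0.44 (well above background in 4 of 7 KO mice), and the droplet coats Plin2, Plin5 and Plin3 fell by 0.60 ± 0.12, 0.59 ± 0.13 and 0.29 ± 0.09. Mgll, the monoacylglycerol lipase, fell by 0.47 ± 0.11. Fitm1 rose by 1.16 ± 0.22. In fatty acid uptake and activation 5 of 11 were higher, led by the lipoprotein receptor Vldlr (1.68 ± 0.21), with Acsl1 (0.63 ± 0.11), Slc27a2 (0.40 ± 0.08), Slc27a1 (0.37 ± 0.09) and Slc27a5 (0.21 ± 0.04), while Fabp5 was lower by -1.67 ± 0.36.

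Among the related receptors, Ppara rose by 0.69 ± 0.15 and Ppard fell by 1.88 ± 0.42, and Nr1h3 was not called. Of 16 partners and coregulators 5 were called higher and 3 lower. Rxrg, a dimer partner of PPARγ, fell by 0.74 ± 0.11 and Cebpb by 0.46 ± 0.11, and Ep300 and Ncoa1 rose by 0.19 ± 0.07 and 0.13 ± 0.05. Ppargc1b, Rxra, Ncoa3 and Med1 were called by a dimmer probe only, and the brightest probes of Ppargc1b and Rxra gave -0.52 ± 0.22 and 0.17 ± 0.10. Of the remaining linked genes 3 of 7 were higher: Cyp4a14 (0.67 ± 0.12), Ucp2 (0.59 ± 0.16) and Acaa1b (0.51 ± 0.17). All adjusted p-values of the brightest probes named as changed here were at most 0.0484 (limma, over 36059 probes).

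**Figure D5:**
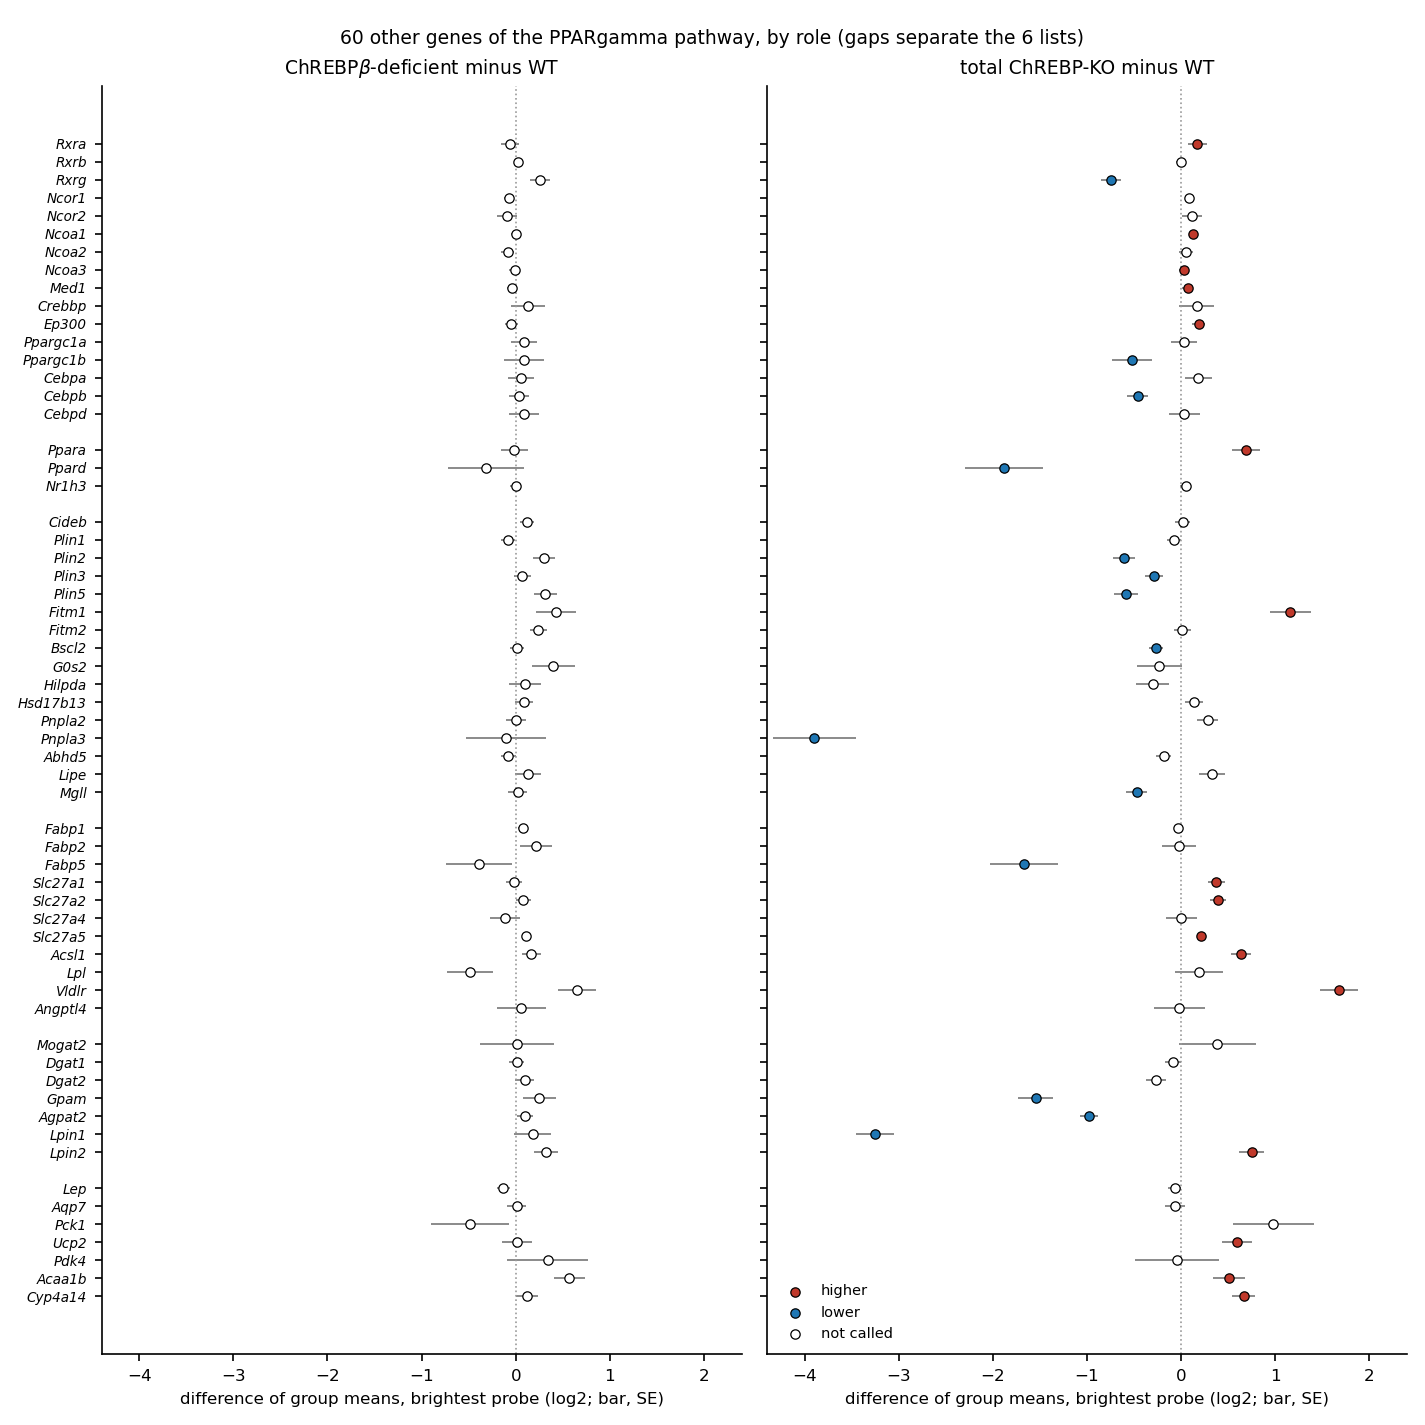
Difference of group means (log2, horizontal axes, bars are the SE) of the brightest probe of 60 PPARγ-pathway genes, for ChREBPβ-deficient minus WT and total ChREBP-KO minus WT liver, in 6 lists by role. Red and blue mark genes with at least 1 probe called higher or lower (0 in the beta line, 16 and 14 in the total line), and white marks genes not called.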

How the data were processed

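Liver RNA was labelled with Cy3 and hybridised to 1-colour Agilent mouse arrays, scanned and quantified by the authors with Feature Extraction 10.10.1.1. The deposited scanner files hold spot intensity, and the deposited table holds log2 values that the authors quantile-normalised. Log2 values were recomputed here from the median intensity of each spot by the stated method: spots were kept when found, positive and clear of background on 26 or more of the arrays, or on 6 within any group, quantile-normalised, and replicate probes resolved by their median (36059 probes). Of the differences from the deposited values, the 1st and 99th percentiles were -0.03 and 0.03. No kept spot was saturated. For arrays the number of mice limits the precision.

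The 4 groups were fitted in 1 model with limma 3.58.1 (R 4.3.3), with moderated statistics and Benjamini-Hochberg adjustment over all probes, threshold 0.05. A gene with several probes was called when at least 1 passed. The script was tested on simulated data. The members and lists were chosen with earlier results of these data known. The genes named were all tested probes of the 9 genes, Mlxipl, up to 6 called genes of each pathway list with the largest difference, and the 3 genes most like each member, of which 1 for Cidec is not reported here. Probe positions are mm9 as in the scanner files. Alternatives were other signals, normalisations, filters, blocks for slide, scan day and replicate, separate fits, an exact Mann-Whitney test and leaving out arrays. The labels number replicates without naming animals, so p-values measure the spread between these samples.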

Additional observations from a re-analysis of the deposited data

Results flagged for a closer look

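In 48 groups of values (12 probes in 4 groups), the single mouse farthest from the rest stood apart by Dixon's test in 4. Chance gives about 5%, but the genes were chosen for wide spread between mice and the values share mice and probes, so nothing is read from the count. All 4 were total ChREBP-KO mouse 6: Cidea at 7.30 (next 5.38), Cfd at 12.94 (next 6.01) and 11.89 (next 5.56) on its 2 probes, and Retn at 8.99 (next 5.45). This mouse also had the highest Adig, Adipoq and Tnnc2 signals of the 31, as given above, and the part of these in its values was not tested.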

How the results depend on the processing

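The count of called probes stayed at 0 of 12 for ChREBPβ deficiency and for the difference of effects under every alternative run. For total ChREBP-KO it was 1 with only spots measured on all arrays (2 probes left) and 1 on each scan day alone, and 3 to 4 leaving out single arrays. Mogat1 was also lost there without the 3 mice with high Adig (adjusted p = 0.0517), and Pparg without the 3 with pancreatic RNA (adjusted p = 0.0793). The second Mogat1 probe was gained with processed signals (adjusted p = 0.0221) and with slide or replicate blocks. For the WT littermates the count was 1 with only spots measured on all arrays, 3 with slides as fixed blocks, 2 and 1 on scan days 1 and 2, 4 with median signals scaled to the 75th percentile, 8 without the 3 mice with high Adig (both Cfd probes gained), and 5 to 6 leaving out single arrays. The 3 mice with high Adig included those with the highest Cfd of total-line WT, so leaving them out could only widen the Cfd difference between WT littermates. The pathway list gave 14 called genes on scan day 2 alone and 26 to 32 leaving out single arrays. Within scan days 1 and 2 the total ChREBP-KO differences were 0.70 and 0.61 for Pparg, 0.89 and 1.02 for Cd36 and 1.19 and 0.44 for Mogat1, and those between WT littermates -1.12 and -0.84, -1.10 and -1.06, and -1.27 and -0.88. The labels do not say whether equal replicate numbers pair a mutant with a WT sample. Between samples of equal number, r of deviations was over 0.1 in 6 of 8 beta-line pairs (-0.16 to 0.53). In the total line it was so in 2 of 7 pairs (-0.21 to 0.24). With replicate numbers as a block, 0 (beta line), 4 (total line), 0 (difference) and 6 (WT littermates) probes were called, and 0 and 32 pathway genes. The block added the second Mogat1 probe in the total line (adjusted p = 0.0204). The exact Mann-Whitney test lost Mogat1 in total ChREBP-KO (adjusted p = 0.0947). The median SD of 0.476 became 0.513 with processed signals, 0.404 with normexp correction or spots measured on all arrays, and 0.415 without the 3 mice with high Adig.

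Signs changed only for values that were not called. In total ChREBP-KO, Cfd became 0.22 and 0.36 (its 2 probes) with processed signals, 0.00521 and 0.00363 with scaling to the 75th percentile, 0.41 and 0.32 without the 3 mice with high Adig, 0.36 and 0.22 without the 3 with pancreatic RNA and 1.19 and 0.99 on scan day 2, and its first probe 0.00495 with scan day as a block. Leaving out single arrays it ran from -1.14 to 0.63 and from -1.07 to 0.55. Cidec became 0.047 with slides as fixed blocks, 0.039 and 0.13 without either set of 3 mice and 0.26 on scan day 2, and ran from -0.41 to 0.18. The second Fabp4 probe became -0.085 with the slide block and ran from -0.071 to 0.23, and Retn became 0.57 on scan day 2 and ran from -0.83 to 0.028. In the beta line, scan day 1 alone gave -0.015 for Pparg, -0.12 and -0.11 for Fabp4 and -0.19 for Retn. Fabp4 was -0.00330 with scan day as a block and ran from -0.038 to 0.10. The settings that left out 3 mice and that took each scan day alone were chosen after seeing the data. The cause of these changes was not tested.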
